A study of Apis mellifera with 3 samples.

Results

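Transcripts for the making, breakdown and sensing of juvenile hormone and ecdysone, and for the related takeout carrier proteins, were followed in RNA labelled as hypopharyngeal gland from worker honeybees. They were selected by the text of the best protein match that the authors deposited for each transcript sequence: juvenile hormone, Kruppel homolog 1 or Kr-h1, methoprene, farnes, ecdyso, ultraspiracle, ftz-f1, hormone receptor, broad-complex or takeout, with glucosyltransferases left out. This gave 46 of 21441 sequences, matching 37 proteins. Of these sequences, 22 match 15 proteins that carry a gene symbol in the RefSeq gene table of assembly Amel_HAv3.1, which served for names and gene neighbourhood only. Kruppel homolog 1, Kr-h1 and methoprene each found 0 sequences, so the juvenile hormone receptor and its early target gene were not analysed here. The words also bring in enzymes and receptors outside these hormone pathways, which are given last.

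The libraries came from Apis mellifera carnica Pollmann workers, full sisters whose mothers were inseminated with a drone's sperm, and each library was made from 30 pooled bees. The labels give glands as the tissue, whereas the design text speaks of pooled heads. The winter bee pool is labelled day 3 after emergence, the spring bee pool day 6 and the retired bee pool day 9, with 1 library each. No group has a replicate, so no difference below was tested against the spread between samples, and season, task and labelled day cannot be told apart. The intervals given are exact 95% intervals of the read counts and cover counting error only. Levels are RPKM, the uniquely mapped reads scaled to the length of the sequence and to all such reads in the library.

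Uniquely mapped reads came to 3.85 M (M, mega) in winter, 3.29 M in spring and 3.18 M in retired bees. At these depths 3 reads on a sequence of 1 kb are 0.780, 0.912 and 0.944 RPKM in the same order. Sequences with the words for gland products summed to 61488 RPKM in winter, 154440 RPKM in spring and 133541 RPKM in retired bees, over 48 sequences. Neuron markers were read as well, with 27 of 36 sequences at 10 RPKM or more and sums of 2578, 2071 and 2147 RPKM. Markers of photoreceptors (13 of 20 sequences at 10 RPKM or more), muscle (19 of 41), antenna (14 of 41) and fat body (6 of 14) were also present, and 1 of 2 blood cell marker sequences reached that level. The corpora allata, the small glands behind the brain that make juvenile hormone, have juvenile hormone acid methyltransferase as their defining enzyme, and 0 listed sequences carried that name. In pooled tissue, fewer cells of a type and less RNA per cell cannot be told apart.

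Juvenile hormone is a sesquiterpenoid built from farnesyl pyrophosphate, the product of the mevalonate pathway, and is removed by an esterase and an epoxide hydrolase. Ecdysone acts through a pair of nuclear receptors, the ecdysone receptor and ultraspiracle, which switch on a cascade of further transcription factors such as E75, broad-complex, HR3 and FTZ-F1. In adult worker bees juvenile hormone is best known for rising as nurses become foragers while vitellogenin declines, and the hypopharyngeal glands change their secretion over the same passage. Takeout proteins are secreted carriers related to insect juvenile hormone binding proteins. They are known from Drosophila for links to feeding, the daily clock and male courtship.

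Spring bees against winter bees asks how the pool labelled spring differs from the one labelled winter. A takeout-like gene was 17.5-fold higher in the spring library in its most read sequence, and the nuclear receptors E75 and FTZ-F1 beta were 1.87-fold and 2.29-fold lower than in winter. Ultraspiracle, broad-complex and HR3 were lower by smaller amounts, farnesyl pyrophosphate synthase and juvenile hormone epoxide hydrolase differed little per library total, and the rarely read juvenile hormone esterase was 2.56-fold lower. Retired bees against spring bees, a comparison of the later pool with the one before it, had the takeout-like gene 1.58-fold lower and E75 and FTZ-F1 beta higher. Retired bees against winter bees left the takeout-like gene high and FTZ-F1 beta low, with E75 closer to its winter level. Each library serves in 2 of these comparisons, so their directions are not independent.

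**Figure D1:**
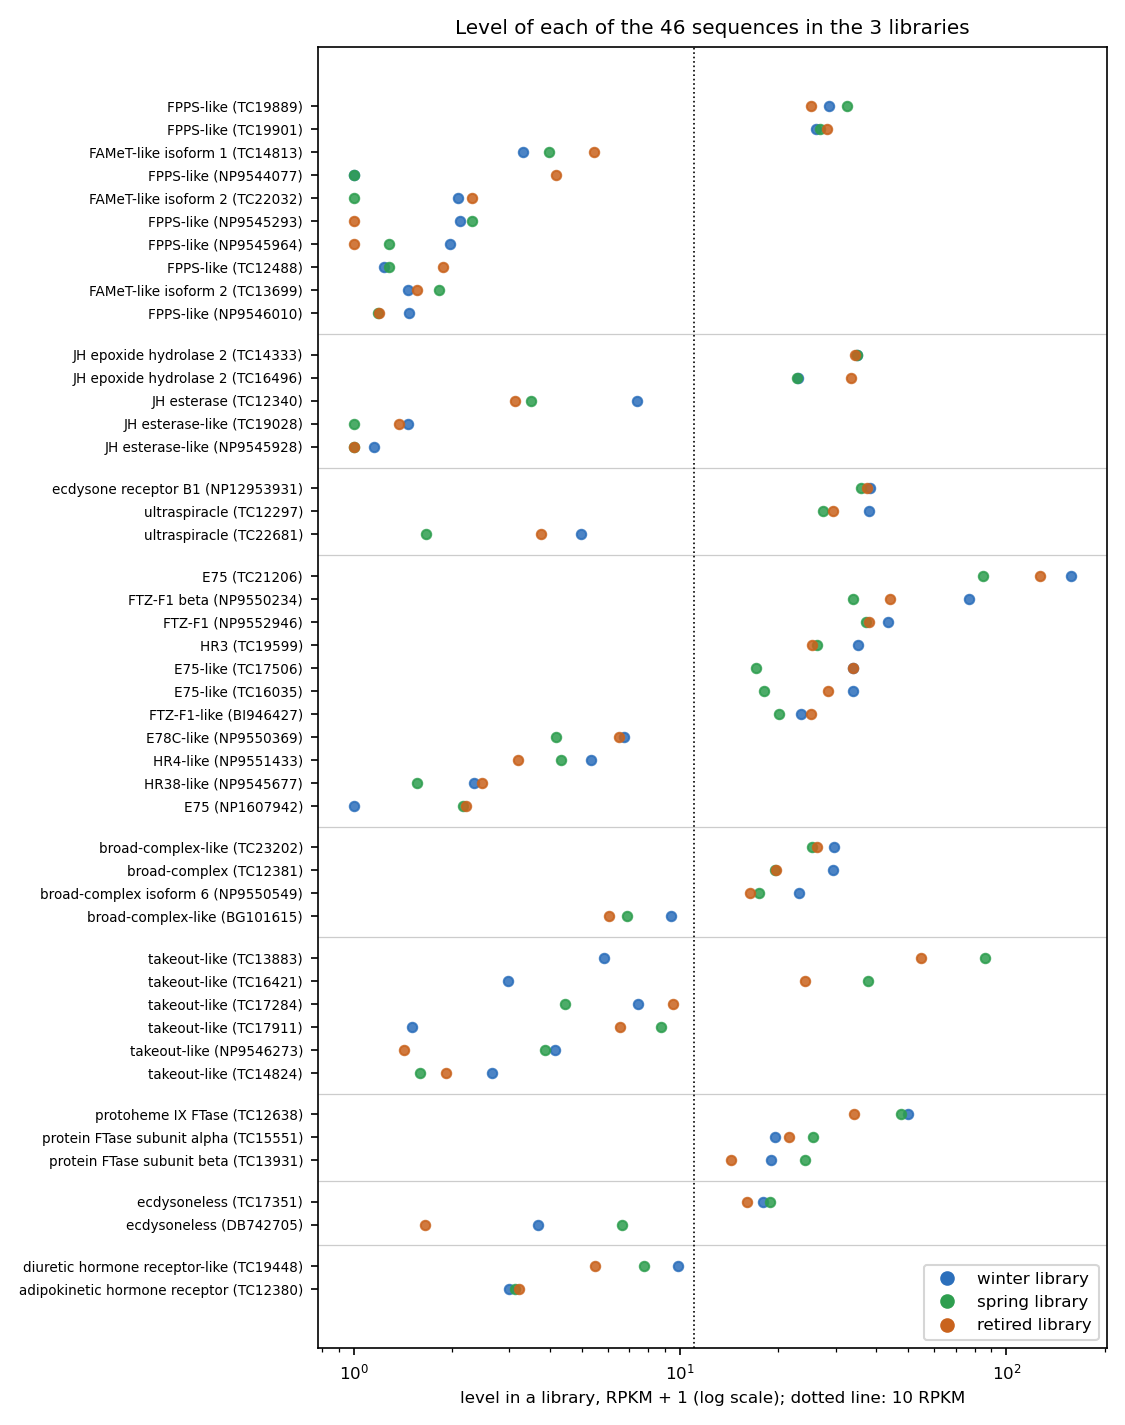
Level of each of the 46 sequences in the winter, spring and retired libraries, as RPKM + 1 on a log axis, grouped by role; each point is 1 library, FPPS is farnesyl pyrophosphate synthase, FAMeT farnesoic acid O-methyltransferase, JH juvenile hormone and FTase farnesyltransferase. E75 (TC21206) is the highest, at 157 RPKM in winter, and 24 of the 46 sequences stay left of the dotted line at 10 RPKM in all libraries.

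Most of these transcripts were of low or middle abundance. Of the 46, 22 reached 10 RPKM in at least 1 library (47.8%), against 56.9% of all 21441 sequences and 61.5% of those with a protein match. Of the other 24, 6 stayed under 1 RPKM in every library. Of all 46, 39 were read in all libraries. The reads of the 46 made up 0.155% of the library in winter, 0.121% in spring and 0.130% in retired bees. The plot of levels by role shows the nuclear receptors and broad-complex above most other members. E75 (TC21206) lay above 96.1% of all sequences in its highest library, FTZ-F1 beta above 89.3% and takeout-like TC13883 above 90.8%.

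The takeout-like sequences held the widest differences. TC13883, a match to the protein of LOC727028, stood at 4.86 RPKM in the winter library (23 reads), 85.1 RPKM in the spring library (344 reads) and 53.8 RPKM in the retired library (210 reads). It was low in winter and high in both other libraries. Reads per library total were 17.5-fold higher in spring than in winter (11.5 to 27.99), 11.1-fold higher in retired than in winter bees (7.17 to 17.8) and 1.58-fold lower in retired than in spring bees (1.33 to 1.89). The reads covered 43.3% of its length in winter, 79.5% in spring and 80.6% in retired bees.

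TC16421 and TC17911 have the same best match, but only weakly, with E values of 1.02e-09 and 2.43e-10, against 1.07e-139 for TC13883. TC16421 stood at 1.97, 36.8 and 23.2 RPKM in winter, spring and retired bees (4, 64 and 39 reads). TC17911 stood at 0.510, 7.75 and 5.55 RPKM (1, 13 and 9 reads). Both were lowest in winter and highest in spring, as TC13883 was. Since only uniquely mapped reads were counted, the 3 sequences share no reads, but they share a best match and the libraries and are not replicates. Summed over the 3, the spring library had 421 reads and the winter library 28, a 17.6-fold higher share (12.0 to 26.8). The retired library had 258 reads, 11.2-fold more than winter per library total (7.54 to 17.1) and 1.58-fold less than spring (1.35 to 1.85).

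The other takeout-like sequences did not share this order. TC17284 (LOC726981) stood at 6.45 RPKM in winter, 3.43 in spring and 8.53 in retired bees, lowest where TC13883 was highest. NP9546273 (LOC727021) stood at 3.14, 2.86 and 0.423 RPKM in the same order, the last on 1 read. TC14824, which matches a takeout-like protein of the dwarf honeybee Apis florea, stood at 1.65, 0.595 and 0.923 RPKM. These 3 together had 21 reads in spring and 44 in winter, a 1.79-fold lower share (1.04 to 3.17), while the sequences matching LOC727028 were higher. Taken singly, each of the 3 had a spring over winter interval that includes 1. Their sum is per library total and was not rescaled, so its interval may include 1 under another scaling. In the gene table LOC727021 and LOC727028 are direct neighbours, with 0 protein-coding genes between them, and LOC726981 lies 4 protein-coding genes away from LOC727021. The neighbouring genes thus had different orders of the libraries, with LOC727021 on 9 reads or fewer per library.

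**Figure D2:**
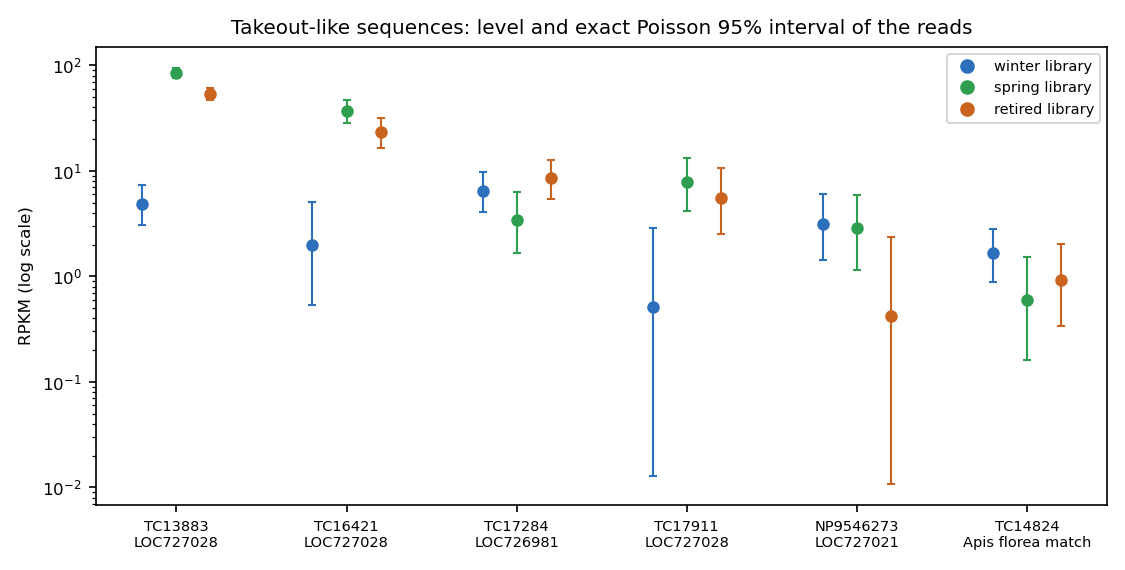
RPKM of the 6 takeout-like sequences on a log axis, with the matching gene under each; points are the winter, spring and retired libraries (1 each) and bars are exact Poisson 95% intervals of the read counts. The sequences matching LOC727028, weakly for TC16421 and TC17911, are lowest in winter, at 4.86 RPKM for TC13883 against 85.1 in spring. TC17284 is lowest in spring, at 3.43 RPKM.

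Farnesyl pyrophosphate synthase, which joins isoprene units into farnesyl pyrophosphate, was matched by 7 sequences. Most of its reads fell on TC19889, at 27.5 RPKM in winter, 31.4 in spring and 24.2 in retired bees, and on TC19901, at 25.04, 25.8 and 27.3 RPKM. Both match LOC551189, and per library total the intervals of both include 1 in all comparisons. Scaled to the median of ratios, TC19889 was 1.37-fold higher in spring than in winter (1.05 to 1.78). With royal jelly reads left out of the total it was 1.34-fold higher (1.03 to 1.76), and retired over spring was 0.743 (0.554 to 0.993). The other 5 stayed between 0 and 3.18 RPKM, with 4 reads or fewer each. LOC551189 and LOC551910, which TC12488 matches, lie 4 protein-coding genes apart. Over the 7 sequences, per library total, the spring share was 1.08-fold that of winter (0.866 to 1.34) and the retired share 0.863-fold that of spring (0.683 to 1.09).

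Farnesoic acid O-methyltransferase-like sequences, named for a step near the end of juvenile hormone synthesis, were matched to a stingless bee (Melipona) and hardly read. TC14813 stood at 2.30 RPKM in winter, 2.96 in spring and 4.45 in retired bees (10, 11 and 16 reads), and the other 2 sequences had at most 3 reads in a library. At this depth no difference was detectable in their sum, with the retired over winter ratio at 1.73 (0.831 to 3.70).

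Of the enzymes that remove juvenile hormone, the epoxide hydrolase was close to level per library total and the esterase was not. Juvenile hormone epoxide hydrolase 2 (LOC406152) stood at 33.8 RPKM in winter, 33.8 in spring and 33.4 in retired bees on TC14333. The shorter TC16496 stood at 22.0, 21.8 and 32.4 RPKM, and its retired over spring ratio of 1.49 has an interval that includes 1 (0.970 to 2.30). Summed over both, the spring over winter ratio was 0.998 (0.851 to 1.17). Scaled to the median of ratios, TC14333 was instead 1.20-fold higher in spring than in winter (1.01 to 1.42) and 1.21-fold higher in retired than in winter bees (1.02 to 1.44). TC16496 was then 1.81-fold higher in retired than in winter bees (1.20 to 2.73), and 1.67-fold higher without royal jelly reads (1.11 to 2.53). Juvenile hormone esterase (Jhe, TC12340), which cleaves the methyl ester of the hormone, stood at 6.41 RPKM in winter, 2.50 in spring and 2.13 in retired bees (51, 17 and 14 reads). Its winter level was the highest of the libraries, with a spring share 2.56-fold lower than winter (1.46 to 4.73) and a retired share 3.01-fold lower than winter (1.64 to 5.88). It lies under 10 RPKM in all libraries and so enters none of the counts below. The 2 esterase-like sequences had 3 reads or fewer in each library.

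E75 is a nuclear receptor that ecdysone induces and that, in Drosophila, binds heme. Its longest sequence TC21206 stood at 157 RPKM in winter, 83.9 in spring and 126 in retired bees (1879, 858 and 1241 reads). Spring was lowest, 1.87-fold below winter (1.73 to 2.03), and retired bees were between, 1.497-fold above spring (1.37 to 1.63) and 1.25-fold below winter (1.16 to 1.34). TC16035 and TC17506, which match E75 of other Hymenoptera weakly (E values of 1.59e-10 and 1.01e-10), gave 32.8, 17.1 and 27.4 RPKM and 32.8, 16.2 and 32.9 RPKM in the same order. Both were lowest in spring. TC17506 was 2.03-fold lower in spring than in winter by reads (1.30 to 3.25) and 2.03-fold higher in retired than in spring bees (1.28 to 3.30). Another E75 match, NP1607942, had at most 1 read per library. Over all E75 matches the spring share was 1.88-fold lower than winter (1.73 to 2.03) and the retired share 1.52-fold higher than spring (1.39 to 1.65).

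FTZ-F1 beta (NP9550234, LOC413474), the bee relative of the Drosophila orphan receptor HR39, differed most among the receptors at 10 RPKM or more in spring over winter. It stood at 75.7 RPKM in winter, 33.0 in spring and 42.8 in retired bees (749, 279 and 350 reads), with winter high and both other libraries low. The spring share was 2.29-fold lower than winter (1.997 to 2.64), the retired share 1.77-fold lower than winter (1.55 to 2.01) and 1.30-fold higher than spring (1.11 to 1.52). FTZ-F1 itself (NP9552946), a competence factor for ecdysone responses in Drosophila, differed less, at 42.3, 36.1 and 36.9 RPKM. It was 1.17-fold lower in spring than in winter (1.01 to 1.36), but the direction turned to a log2 ratio of 0.031 with reads scaled to the median of ratios. The shorter FTZ-F1-like BI946427 stood at 22.4, 19.1 and 24.2 RPKM, and its intervals include 1 in all comparisons.

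Ultraspiracle and HR3 lay lower in spring by smaller amounts, and ecdysone receptor B1 had an interval that includes 1. Ultraspiracle (Usp, TC12297) stood at 36.9 RPKM in winter, 26.3 in spring and 28.4 in retired bees, 1.401-fold lower in spring than in winter (1.22 to 1.61). Ecdysone receptor B1 (Ecr, NP12953931) stood at 37.3, 34.7 and 36.3 RPKM and its intervals include 1 in all comparisons. Its spring over winter ratio of 0.932 (0.699 to 1.24) turned to 1.12 (0.836 to 1.49) scaled to the median of ratios and to 1.10 (0.824 to 1.46) without royal jelly reads. The A isoform (TC12324), deposited as an ecdysteroid receptor and therefore outside the 46, stood higher, at 102, 77.2 and 76.3 RPKM, 1.32-fold lower in spring than in winter (1.19 to 1.46). Over both isoforms the spring share was 1.29-fold lower than winter (1.17 to 1.42). Both of these folds are per library total. The A isoform and the sum were not rescaled, and their intervals may include 1 under another scaling. HR3 (TC19599), which in Drosophila is induced by ecdysone ahead of FTZ-F1, stood at 34.0, 25.3 and 24.4 RPKM, 1.35-fold lower in spring than in winter (1.08 to 1.68).

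Broad-complex encodes zinc finger factors that act early in ecdysone responses and are best known from the pupal moult. Its sequence TC12381 (Br-c) stood at 28.3 RPKM in winter, 18.5 in spring and 18.7 in retired bees. Summed over 4 broad-complex sequences, the spring share was 1.39-fold lower than winter (1.17 to 1.66) per library total. The retired share was 1.41-fold lower than winter (1.19 to 1.69), and retired over spring was 0.987 (0.811 to 1.20). This sum was not rescaled, and its intervals against winter may include 1 under another scaling. E78C-like NP9550369 stood at 5.74, 3.16 and 5.52 RPKM in winter, spring and retired bees, HR4-like NP9551433 at 4.35, 3.32 and 2.18 RPKM and HR38-like NP9545677 at 1.33, 0.568 and 1.47 RPKM. All stayed under 10 RPKM. A second ultraspiracle sequence, TC22681, had 7, 1 and 4 reads.

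These receptor values have to be read against the libraries as a whole. For the 12038 sequences that reached 10 RPKM in winter or spring, the median log2 ratio of (RPKM + 1) in spring over winter was -0.26, and 73.3% lay lower in spring, as did 15 of the 22 members at that level. Relative to that median, FTZ-F1 beta lay at -0.91, E75 (TC21206) at -0.64 and TC17506 at -0.72, while broad-complex TC12381 lay at -0.33, ultraspiracle at -0.21 and HR3 at -0.15. Others of these receptors and broad-complex sequences lay above it, ecdysone receptor B1 at 0.16, FTZ-F1 at 0.038, FTZ-F1-like BI946427 at 0.039 and broad-complex-like TC23202 at 0.046. After rescaling to the median of ratios, FTZ-F1 beta was 1.92-fold lower in spring (1.67 to 2.21) and E75 1.56-fold lower (1.44 to 1.70). Ultraspiracle was 1.17-fold lower (1.02 to 1.35). The intervals of broad-complex TC12381 (1.28-fold lower, 0.990 to 1.66) and HR3 (1.12-fold lower, 0.901 to 1.41) then included 1. Without royal jelly reads, TC12381 was 1.30-fold lower (1.01 to 1.68) and HR3 1.14-fold lower (0.914 to 1.43). In retired over winter, rescaling to the median of ratios put E75 at 1.02-fold lower (0.949 to 1.10). Ultraspiracle was then 1.06-fold lower in retired bees (0.923 to 1.22) and FTZ-F1 beta 1.44-fold lower (1.27 to 1.64).

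**Figure D3:**
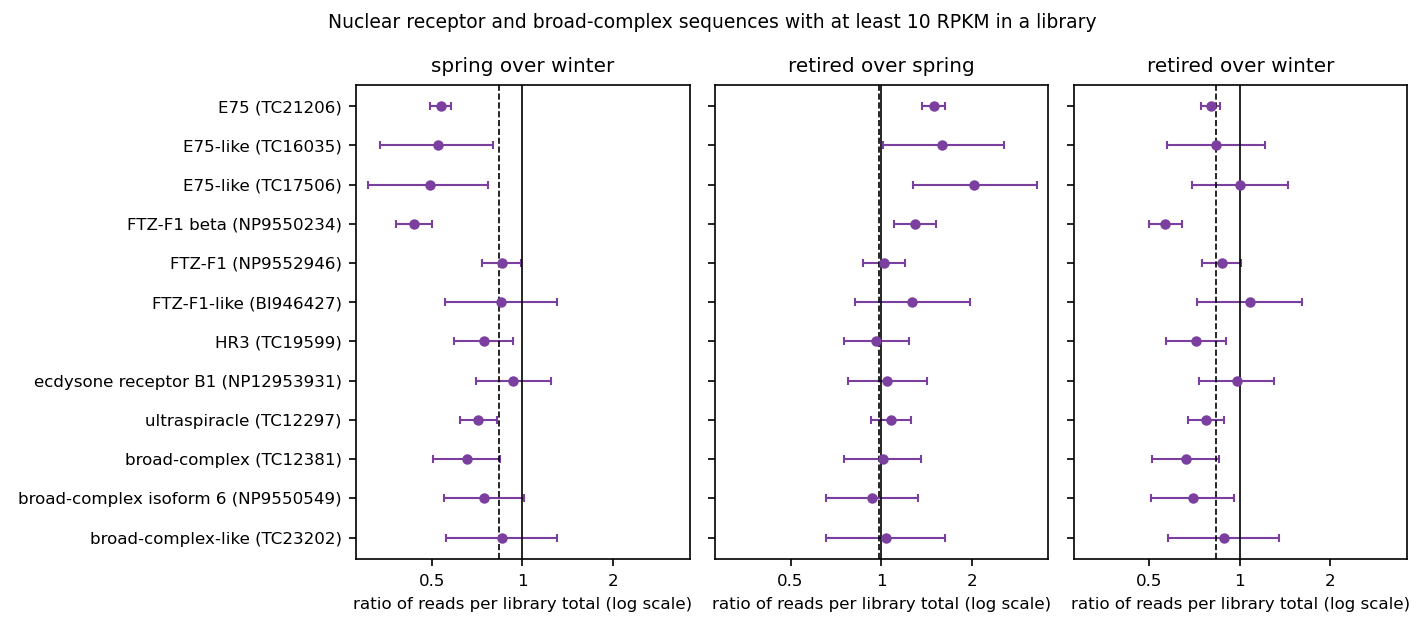
Ratio of reads per library total for the 12 nuclear receptor and broad-complex sequences that reach 10 RPKM in a library, on a log axis, with exact 95% counting intervals; the dashed line is the median ratio of (RPKM + 1) over all sequences. In spring over winter the 3 E75 sequences, FTZ-F1 beta and ultraspiracle lie left of the dashed line with their whole intervals. In retired over spring the intervals of the 3 E75 sequences and FTZ-F1 beta lie above 1, and that of ultraspiracle includes 1.

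Per library total, 10 of the 12 nuclear receptor and broad-complex sequences at 10 RPKM or more were lowest in spring, against 40.5% of all 12208 sequences. Likewise 10 were highest in winter, against 65.0%. This order depends on the scaling. Scaled to the median of ratios, ecdysone receptor B1, FTZ-F1, BI946427 and TC23202 lay above winter in spring, at log2 ratios of 0.15, 0.031, 0.026 and 0.035. The others of the 12 stayed below winter. Some orders also rest on close values, as for TC12381 at 18.5 RPKM in spring and 18.7 in retired bees. Of all 22 members at that level, 11 were lowest in spring and 12 (54.5%) highest in winter. The 12 match only 7 kinds of protein (E75, FTZ-F1 beta, FTZ-F1, HR3, the ecdysone receptor, ultraspiracle and broad-complex), so they are not 12 independent values. Per library total, summed markers of some other cell types were lowest in spring too. Antenna markers summed to 2978 RPKM in winter, 870 in spring and 2381 in retired bees, muscle markers to 798, 581 and 849 RPKM and photoreceptor markers to 335, 287 and 435 RPKM, and the neuron sums above were likewise lowest in spring. On that scale 73.3% of all sequences tested lay lower in spring than in winter. The sums were not rescaled, so photoreceptor and neuron markers may not stay lowest in spring under another scaling. Antenna markers had 4 of 41 sequences at 0 reads in winter, 7 in spring and 9 in retired bees. The part of these cell types in the E75 and FTZ-F1 beta values was not tested. Fat body markers summed to 411, 345 and 319 RPKM and blood cell markers to 17.3, 13.1 and 11.4 RPKM, both lowest in retired bees.

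The remaining members lie outside the hormone enzymes and nuclear receptors above. The protein farnesyltransferase alpha subunit (TC15551), part of the enzyme that attaches farnesyl groups to proteins, stood at 18.5 RPKM in winter, 24.6 in spring and 20.5 in retired bees. The beta subunit (TC13931) stood at 18.05, 23.1 and 13.4 RPKM, 1.73-fold lower in retired than in spring bees (1.27 to 2.37). Protoheme IX farnesyltransferase (TC12638), a heme enzyme of mitochondria, stood at 49.0, 46.6 and 33.0 RPKM, 1.41-fold lower in retired than in spring bees (1.16 to 1.71). Ecdysoneless (ecd, TC17351), named for a Drosophila mutant short of ecdysone, stood at 17.0, 17.9 and 15.0 RPKM, and its shorter sequence had 9 reads or fewer. The diuretic hormone receptor-like TC19448 stood at 8.88, 6.77 and 4.504 RPKM and the adipokinetic hormone receptor (Akhr) at 1.98, 2.13 and 2.20 RPKM.

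Counted over all members, few passed a 2-fold difference. In spring over winter, 22 members reached 10 RPKM in either library. Of them 2 were at least 2-fold higher, TC13883 and TC16421, against 2.14% of all sequences tested, and 1 was at least 2-fold lower, FTZ-F1 beta, against 4.76%. The 2 higher ones share a best match, only weakly for TC16421, so they may be 1 gene and are not 2 independent values. In retired over spring 0 of 22 members were at least 2-fold higher (1.81% of all) and 0 at least 2-fold lower (1.96%). In retired over winter the same takeout-like pair made 2 of 22 at least 2-fold higher (1.31%), and 0 were at least 2-fold lower (5.43%). A sequence that reaches 10 RPKM only where it is high, as TC13883 and TC16421 do, has to differ to be counted, so these counts support nothing by themselves.

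By counting intervals, 3 of 22 members lay above 1 in spring over winter (7.40% of all sequences) and 8 below 1 (34.0%), a share near that of all sequences. The 8 were all nuclear receptor or broad-complex sequences. In retired over spring 4 intervals lay above 1 (8.71%), the 3 E75 sequences and FTZ-F1 beta, and 4 below 1 (11.0%), namely 2 takeout-like sequences and 2 enzymes that transfer farnesyl groups. In retired over winter 2 lay above 1 (5.65%) and 7 below 1 (33.8%). These splits depend on the scaling. Scaled to the median of ratios, 7 of 22 members lay above 1 and 5 below in spring over winter. All sequences then had 1992 above and 1587 below of 11749, against 891 and 4098 of 12038 per library total. In retired over winter 5 of 22 members then lay above 1 and 2 below, with 2018 and 1355 of 11674 sequences, against 675 and 4036 of 11955. Without royal jelly reads 5 of 22 members lay above 1 and 6 below in spring over winter, with 1910 and 1786 of 12632 sequences. In retired over winter 3 of 23 members then lay above 1 and 4 below, with 1361 and 2226 of 12466 sequences. Ratios below 1 were found for 10 of 22 members in retired over spring (53.4% of all sequences) and for 15 of 22 in retired over winter (76.6%). The members' median log2 ratio for spring over winter was -0.16, against -0.26 for all sequences tested. For retired over spring it was 0.02 against -0.02, and for retired over winter -0.17 against -0.26.

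**Figure D4:**
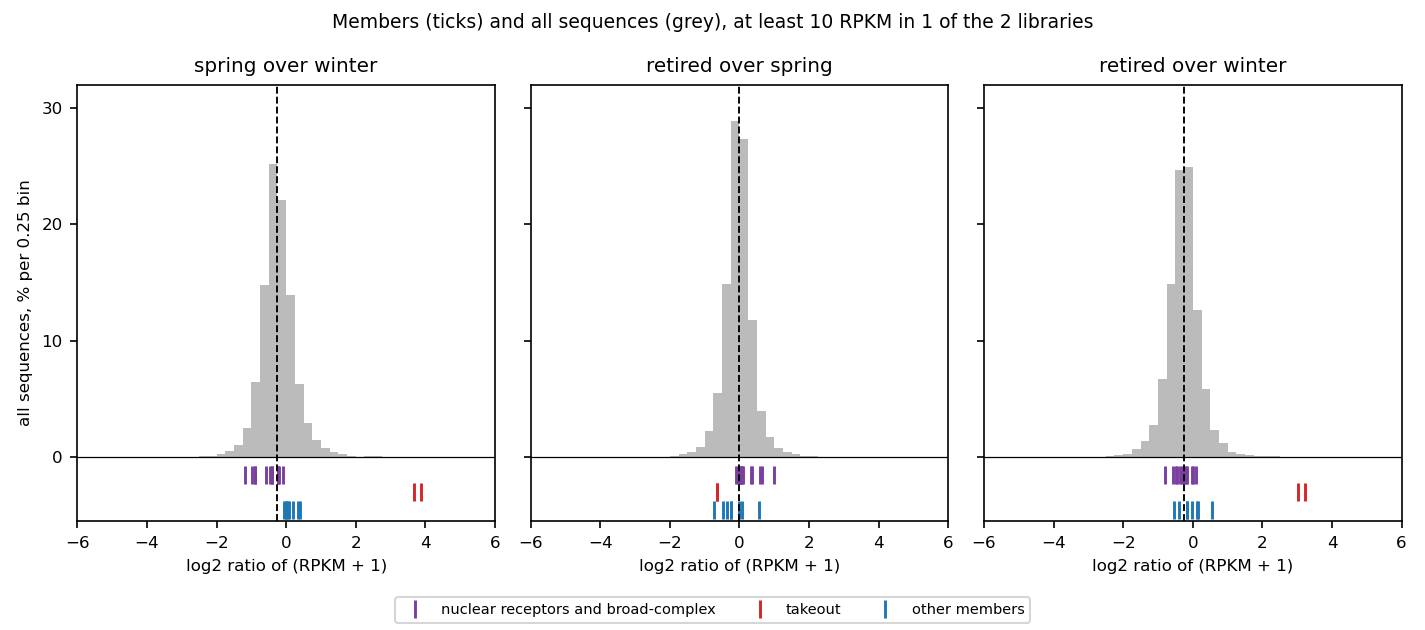
Log2 ratio of (RPKM + 1) for sequences that reach 10 RPKM in either library of the pair; grey bars give all sequences in percent per bin, ticks below give the 22 members and the dashed line is the median of all sequences. The takeout-like pair lies at 3.88 and 3.67 in spring over winter, far from the other members; 14 sequences in each of the first 2 panels lie beyond the axis.

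Other genes of the same pathways, found by words in their match, seldom passed 2-fold. In the mevalonate pathway, which feeds farnesyl pyrophosphate, 10 of 11 sequences reached 10 RPKM in a library and 0 were at least 2-fold different in any comparison. The median log2 ratio in spring over winter was 0.15. Mevalonate kinase-like TC12988 stood at 35.8 RPKM in winter, 58.6 in spring and 42.2 in retired bees, 1.64-fold higher in spring than in winter (1.37 to 1.95). Hydroxymethylglutaryl-CoA synthase TC13229, an earlier step, stood at 20.4, 12.7 and 12.5 RPKM, 1.61-fold lower in spring than in winter (1.21 to 2.15). HMG-CoA reductase TC12953, the rate-limiting enzyme of the pathway, stood at 19.9, 23.8 and 22.0 RPKM. Geranylgeranyl pyrophosphate synthase-like NP9543942, which uses farnesyl pyrophosphate, stood at 45.2, 24.8 and 35.5 RPKM, again lowest in spring. Steps of 1 pathway thus lay on opposite sides of 1.

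Most sequences for ecdysteroid synthesis were read at low levels. Only 3 of 11 sequences in that list, which also covers sterol transport, reached 10 RPKM in winter or spring, and 0 were at least 2-fold different. The cytochrome P450 matched by TC12384, known as shade in Drosophila and the last step to the active ecdysteroid, stood at 15.2 RPKM in winter, 9.39 in spring and 13.6 in retired bees, and the one matched by NP9548111, known there as phantom, at 4.998, 3.70 and 3.03 RPKM. Of 17 sequences for receptor partners and other nuclear receptors, 11 were measured at 10 RPKM. In spring over winter 0 of them were at least 2-fold different, against 2.14% of all sequences higher and 4.76% lower. A proline-rich nuclear receptor coactivator 2-like sequence (TC12876) stood at 126, 81.0 and 56.5 RPKM. It was 2.23-fold lower in retired than in winter bees (1.79 to 2.78), as 1 of 11, against 5.43% of all sequences. A match to a 12 kDa FK506-binding protein (TC15426) was 2.20-fold lower in retired than in spring bees (1.24 to 4.07), as 1 of 11, against 1.96%. HSP90 (TC15215), the chaperone that holds steroid receptors ready for ligand in vertebrates, stood at 63.1, 62.5 and 56.0 RPKM. A heat shock protein 83-like sequence of the same list (TC14448) differed more, at 36.2, 43.4 and 27.6 RPKM. It was 1.20-fold higher in spring than in winter (1.03 to 1.39) and 1.57-fold lower in retired than in spring bees (1.32 to 1.87).

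Among 10 upstream neurohormone sequences, 4 reached 10 RPKM in spring or retired bees, and 1 of them was at least 2-fold higher in retired than in spring bees (1.81% of all sequences). This corazonin receptor (NP9552693) stood at 9.86 RPKM in winter, 3.51 in spring and 11.9 in retired bees, 3.40-fold higher in retired than in spring bees (1.84 to 6.70). A shorter sequence with the same match, BI506383, stood at 6.14, 2.05 and 4.78 RPKM, also lowest in spring. The allatostatins precursor (TC14914), a source of peptides named for their effect on the corpora allata, stood at 15.3, 11.6 and 11.2 RPKM. Of 12 sequences for hormone-responsive genes, 3 reached 10 RPKM in winter or retired bees, and 2 of them were at least 2-fold lower in retired than in winter bees (5.43% of all sequences). In spring over winter 1 of 3 was at least 2-fold lower (4.76%), and in retired over spring 1 of 2 (1.96%). Vitellogenin, the yolk protein precursor (TC12290), stood at 51.8, 9.69 and 9.39 RPKM and hexamerin TC12320, a storage protein, at 21.2, 10.8 and 3.98 RPKM. Vitellogenin was 5.35-fold lower in spring than in winter bees (4.55 to 6.32) and 5.52-fold lower in retired than in winter bees (4.68 to 6.56). The hexamerin was 2.72-fold lower in retired than in spring bees (1.81 to 4.18) and 5.33-fold lower in retired than in winter bees (3.68 to 7.94). Both were highest in winter, as juvenile hormone esterase was and as 65.0% of all sequences at 10 RPKM or more were.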

How the data were processed

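Messenger RNA was enriched with oligo-dT beads, fragmented and sequenced on an Illumina instrument, per the labels' protocols. The authors deposited 1 table per library, which per the file headers holds the count of uniquely mapped reads, the RPKM and the coverage fraction of each transcript sequence. The deposited RPKM equal the deposited counts over length and library total. Neither the aligner nor the origin of the sequence set was stated in the labels or headers. Tables were joined on the sequence identifier, with unlisted values taken as 0.

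Ratios are log2 of (RPKM + 1) over (RPKM + 1). A sequence was counted as different at 2-fold when either library of the pair reached 10 RPKM. Folds are ratios of reads per library total with exact conditional binomial (Clopper-Pearson) 95% intervals, and levels have exact Poisson intervals. PCR copies are not independent molecules, so intervals cover counting error only. With 1 library per group no p-value was computed. The calculation was tested on simulated counts.

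The members, roles, pathway words and marker words were chosen with earlier results of these data known. Sequences were named when 2-fold different in any comparison, when they match a defining member of a role at any level, or as 1 of the 5 highest takeout sequences, and from other lists up to 3 with 2-fold differences. Mevalonate, ecdysteroid, chaperone, allatostatin, corazonin receptor BI506383, receptor A and farnesyltransferase sequences, and the remaining members, were named after their values were seen. Alternatives were other pseudocounts, minimums, scalings, TPM, a 4-fold threshold and reads summed per protein. Limits to the hormone, receptor and takeout roles, to E values of at most 1e-20 and to at least 50 reads were added after the data were seen. The tools were scipy 1.17.1, pandas 2.3.3 and numpy 2.4.6 under Python 3.11.15, with matplotlib 3.10.9 for plots.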

Additional observations from a re-analysis of the deposited data

How the results depend on the processing

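With 1 library per group, no replicate could be left out. No paired analysis was possible because each group is 1 library. The counts are small, so a single sequence moves them. Scaled to the median of ratios, or without royal jelly reads in the total, 0 members were at least 2-fold lower in spring over winter. FTZ-F1 beta then stood at -0.92 and -0.94 on the log2 scale. In retired over spring 1 member each was at least 2-fold higher, beside 237 of 11710 and 232 of 12396 sequences. The members' median log2 ratio changed sign under these 2 scalings, to 0.095 and 0.074 in spring over winter and 0.11 and 0.0058 in retired over winter, and to -0.023 in retired over spring without royal jelly reads. They moved the median of all sequences in spring over winter from -0.26 to 0.0039 and -0.020, and the split of all sequences past 2-fold there from 258 higher and 573 lower to 432 and 245, and to 468 and 324. In retired over winter 157 higher and 649 lower became 329 and 261, and 277 and 446. TPM gave 2 of 23 members at least 2-fold higher in retired over spring, beside 280 of 12037 sequences. A pseudocount of 0.1 gave 2 of 22 lower in spring over winter (666 of 12038 sequences) and 1 of 22 higher in retired over spring (242 of 11413). A minimum of 1 RPKM or none left 39 or 46 members in spring over winter. Of them 4 were higher and 4 lower, beside 708 and 1663 of 19173 or 21441 sequences. In retired over spring 4 were higher and 3 lower of 39 or 46, beside 865 and 1150 of 18787 or 21441. In retired over winter 5 were higher and 4 lower of 40 or 46, beside 528 and 1980 of 19042 or 21441. A minimum of 50 RPKM left 3 members in both comparisons with winter, 1 of them higher in each, with a median of -0.90 in spring over winter, and 2 members with a median of -0.038 in retired over spring. A 4-fold threshold gave 0 of 22 lower in spring over winter (49 of 12038 sequences). Reads summed per protein, or, added after the data were seen, matches with an E value of at most 1e-20, gave 1 higher in both comparisons with winter, and so did at least 50 reads in retired over winter. The log2 ratio of TC13883 lay between 3.19 and 4.13 in spring over winter and between 2.58 and 3.48 in retired over winter under the other pseudocounts and scalings. Depth limits the members under 10 RPKM.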

Other observations

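The deposited orthology entry named another protein than the best match for several members. All 3 farnesoic acid O-methyltransferase-like sequences carry an entry for elongator complex protein 3. Takeout-like TC17284 and NP9546273 carry one for the GTP-binding nuclear protein Ran, and the esterase-like TC19028 carries one that ends in neuroligin. Names above follow the best match.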
